A study of Homo sapiens with 16 samples.

Results

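CREBBP, EP300, KAT2A, KAT2B, KAT5, KAT6A, KAT6B, KAT7 and KAT8 encode nuclear lysine acetyltransferases. These 9 genes were picked by symbol from the 62714 genes of the count files, each symbol matched 1 gene, and all 9 passed the filter on low counts in every comparison. The question was whether other acetyltransferases were expressed at a different level after CREBBP had been targeted in B-cell lymphoma lines.

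CREBBP (also called CBP) and EP300 (p300) are paralogs. They are large coactivators that transcription factors recruit to enhancers and promoters, where they acetylate histones and other proteins, and CREBBP is often mutated in follicular lymphoma. KAT2A (GCN5) and KAT2B (PCAF) form another pair of paralogs and are the alternative catalytic subunits of the SAGA and ATAC complexes. The remaining genes belong to the MYST family. KAT5 (TIP60) acts in the NuA4-type complex and in DNA repair, KAT6A (MOZ) and KAT6B (MORF) are paralogs that work with BRPF scaffolds, KAT7 (HBO1) acts with BRPF or JADE scaffolds, and KAT8 (MOF) acetylates histone H4 in the MSL and NSL complexes.

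RNA-seq was available for 4 established B-cell lymphoma lines, with 1 library per line in each of 4 groups and 16 libraries in all. Cas9 and a guide pool had been delivered by lentivirus, against CREBBP or, as the control, against the AAVS site, and both the CREBBP and the AAVS cells were kept as pools and not as clones. Each kind of pool was grown at baseline and with IL4, where IL4 stands for culture with 10 ng/ml of interleukin 4 for 4 h, a cytokine that signals through STAT6, and baseline for culture without it. The labels give the genotypes as AAVS -/- and CREBBP -/-, but a pool can hold cells with different edits, or none. SU-DHL4 is line 1 and DOHH2 line 4. For line 2 and line 3 the labels conflict between OCI-LY7 and SU-DHL10, so these are named by number. The counts do not show the edits themselves. The study checked the loss of CREBBP protein in these pools by immunoblotting, which was not analysed here.

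The sequences of 4 guides against CREBBP, from the reagent table of the study, show which part of CREBBP was aimed at. Each guide of 20 bases had 1 exact match next to an NGG motif in GRCh38. The guides are written 5′ to 3′ in lower case, and the capitals mark the adjacent motif (PAM) that Cas9 needs in the genome.
CREBBP_2: ccgcaaatgactggtcacgcGGG
CREBBP_1: cttagcccactgatgaacgaTGG
CREBBP_4: caggacggtacttacgtctgGGG
CREBBP_3: attgcccccctccaaacacgAGG

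For all 4 CREBBP guides the expected cut lies in a coding exon of the canonical CREBBP transcript, which has 31 exons and 2442 codons in GENCODE 44. The exons and codons given here are those of the cut, and whether the whole guide lies in the exon was not checked. CREBBP_2 matches chr16:3850334-3850353 on the minus strand, in exon 2 at codon 253, and CREBBP_1 matches chr16:3780864-3780883 on the minus strand, in exon 8 at codon 563. CREBBP_4 matches chr16:3751711-3751730 on the plus strand, with the cut in exon 20 at codon 1260. CREBBP_3 matches chr16:3739580-3739599 on the minus strand, in exon 25 at codon 1425. The cuts were thus placed between 10.4% and 58.4% of the coding length, and none lies in the last exons. The closest site with an NGG motif in EP300 had 7 mismatches to CREBBP_1 and CREBBP_2 and 6 mismatches to CREBBP_3 and CREBBP_4.

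Some libraries stand apart from the rest, which bears on the comparisons below. Total counts ranged from 19649735 to 61981976. The small RNAs 7SK and 7SL took 18.1% of the counts in the line 2 CREBBP IL4 library, 13.3% in line 3 CREBBP baseline and 10.7% in line 3 AAVS IL4, against 4.41% to 7.91% in the others. The summed level of IGHM, IGHD, CD44 and VIM was 694 to 3470 CPM (counts scaled to the total of their library) in the AAVS IL4 libraries and 0.327 to 8.36 CPM in the other 12 libraries. The summed level of 9 T-cell markers was 37.4 to 214 CPM in AAVS IL4 and 2.18 to 38.2 CPM elsewhere, and that of 7 myeloid markers was 5.18 to 22.2 CPM against 0.497 to 3.47 CPM. The myeloid markers did not all rise. For IL4 against baseline in the AAVS pools, the fitted log2 fold change was 8.30 for LYZ and 0.91 for CD68, but -0.31 for CD14 and -0.075 for CSF1R. The 7 B-cell markers were detected in all groups, at a summed 4040 to 9880 CPM. A list of 7 stromal and epithelial markers summed to 0.943 to 17.6 CPM in AAVS IL4 and 0.0994 to 34 CPM elsewhere. Within each line, the AAVS IL4 library had the highest sum of T-cell markers and of myeloid markers. Their part in the results on AAVS IL4 was not tested. The comparisons without these libraries are CREBBP against AAVS at baseline and IL4 in the CREBBP pools.

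CREBBP targeting was not accompanied by a called change in any of the 9 genes. With edgeR's quasi-likelihood test, the line as a block and p-values adjusted over all genes by the Benjamini-Hochberg method, 0 of 9 genes had an adjusted p under 0.05 for CREBBP against AAVS at baseline, where 0% of all 18936 genes tested were called. With IL4 it was 0 of 9, with 4.39% of 19581 genes called. For IL4 against baseline it was 0 of 9 in the AAVS pools, with 2.4% of 20310 genes called, and 0 of 9 in the CREBBP pools, with 0% of 18282 genes called. For the difference in IL4 response between CREBBP and AAVS pools it was 0 of 9, with 0.638% of 21932 genes called. At an unadjusted p under 0.05, 1 of the 9 genes (KAT2B) was counted at baseline and 0 in each of the other comparisons. Of all genes tested, 12.8% (2422) passed that unadjusted threshold at baseline, 25.6% (5018) for CREBBP against AAVS with IL4, 16% (3257) for IL4 in the AAVS pools, 2.75% (502) for IL4 in the CREBBP pools and 13.3% (2927) for the difference in response. The DESeq2 Wald test called 0 of 9 in all 5 comparisons, while it called 511 of all genes at baseline and 1 for IL4 in the CREBBP pools. Over all settings tried, the lowest adjusted p of any of the 9 genes was 0.0826, for CREBBP itself with IL4 in DESeq2.

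**Figure D1:**
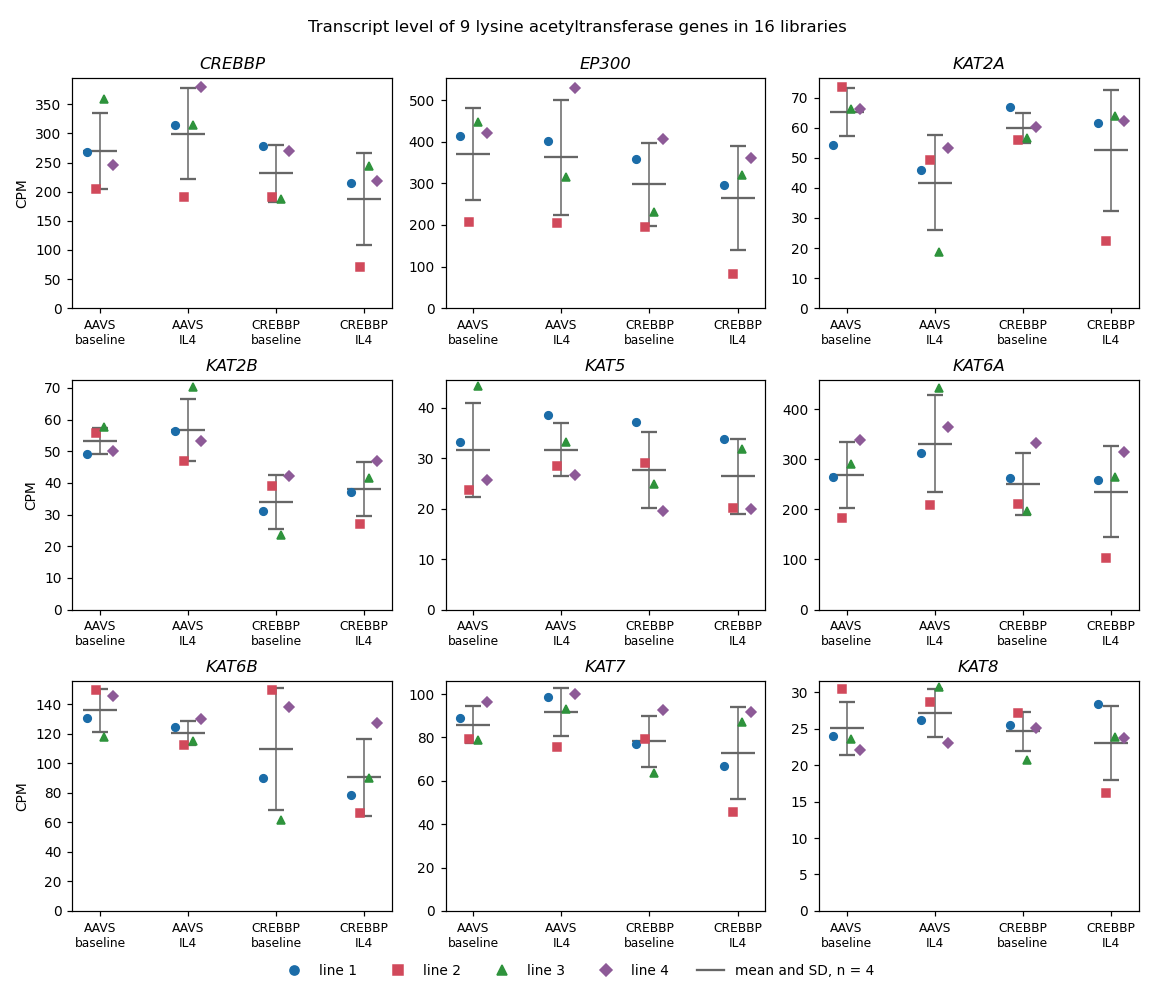
Transcript level in CPM (vertical axis, from 0) of each of the 9 genes in the 16 libraries, by group (horizontal axis). Symbols mark the 4 lines, and bars give the mean and SD over lines. KAT2B was the only gene whose 4 CREBBP baseline values all lay below its 4 AAVS baseline values, and the line 2 CREBBP IL4 library was the lowest of its group for every gene except KAT5.

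The targeted gene, CREBBP (ENSG00000005339; chr16:3725054-3880713 of GRCh38, minus strand), remained counted in every pool, with an estimated count of 2814 to 18074 per library. After TMM scaling, which corrects for differences in composition between libraries, the AAVS baseline pools had 293.4, 178.7, 402.5 and 210.8 CPM in lines 1 to 4 and the CREBBP baseline pools 304.2, 178.4, 238.3 and 247.6 CPM. The groups overlapped, with means of 271.4 ± 99.9 and 242.1 ± 51.5 CPM (SD, n = 4), and the large drop was in line 3. With IL4 the scaled values were 286, 172, 278.3 and 327.1 CPM in the AAVS pools and 227.9, 96.52, 263.5 and 205.2 CPM in the CREBBP pools, which was lower in 4 of 4 lines while the groups still overlapped. The fitted log2 fold change was -0.11 at baseline (95% interval -0.58 to 0.35, adjusted p = 0.851) and -0.51 with IL4 (-1.06 to 0.035, adjusted p = 0.218, both edgeR). The intervals run from 0.67-fold to 1.28-fold at baseline and from 0.48-fold to 1.02-fold with IL4. The CREBBP transcript level in itself therefore gives no check of the labels, as both intervals for the differences within lines included no change. In bulk samples, fewer cells with a transcript and less of it per cell cannot be told apart.

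PPP1R12C, the gene that hosts the AAVS site, averaged 113.3 ± 42.0 CPM (SD, n = 4) in the AAVS baseline and 105.7 ± 33.1 CPM (SD, n = 4) in the CREBBP baseline libraries. Its log2 fold change of 0.018 (adjusted p = 0.979, edgeR) was close to 0.

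EP300 (ENSG00000100393; chr22:41092592-41180077, plus strand), the paralog that shares most of its known functions with CREBBP, was not called higher or lower in the CREBBP pools, and its fitted values were below 0. At baseline the AAVS pools had 412.8, 206.4, 446.4 and 419.9 CPM in lines 1 to 4 and the CREBBP pools 357.9, 194.2, 231.1 and 406.1 CPM. In CPM all 4 lines were lower with CREBBP targeted, by little in lines 2 and 4 and by most in line 3, the line whose CREBBP baseline library had the 13.3% share of 7SK and 7SL. After TMM scaling 2 of 4 lines were lower, as line 2 had 180 CPM in the AAVS and 181.6 CPM in the CREBBP pool and line 4 had 360.1 and 372.1 CPM, while lines 1 and 3 went from 450.4 to 391.6 CPM and from 499.7 to 293.8 CPM. With IL4 the levels were 401.4, 203.6, 316.1 and 529.8 CPM in the AAVS pools and 296.1, 83.18, 319.8 and 361.7 CPM in the CREBBP pools, lower in 3 of 4 lines on both scales. The log2 fold change was -0.22 at baseline (95% interval -0.67 to 0.23, adjusted p = 0.675) and -0.29 with IL4 (-0.87 to 0.29, adjusted p = 0.488, both edgeR). The upper ends of these intervals are 1.17-fold and 1.23-fold. Without line 3, the baseline value was -0.059 in place of -0.22.

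**Figure D2:**
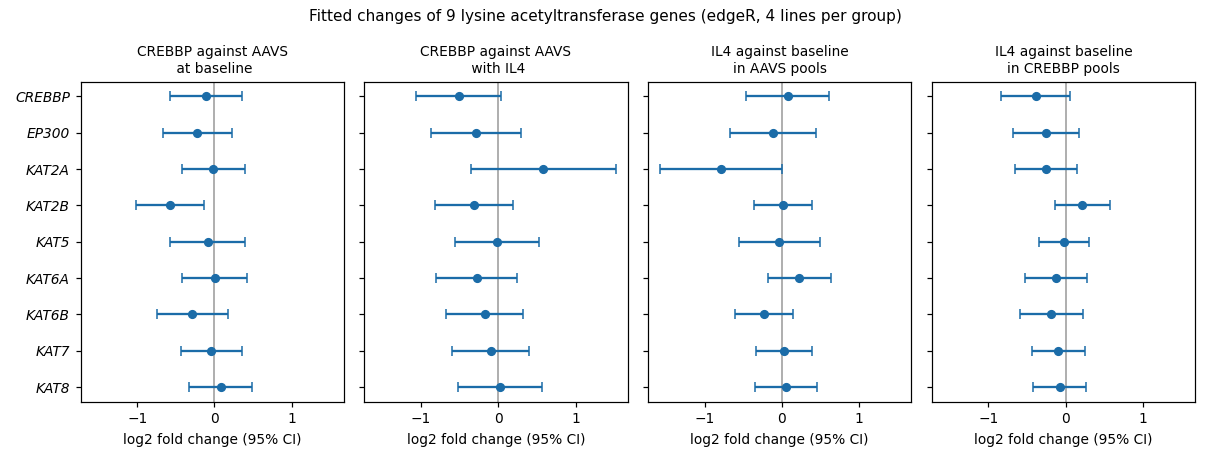
Fitted log2 fold changes (horizontal axis) with 95% intervals for the 9 genes in the 4 pairwise comparisons of groups, from edgeR with 4 lines per group. KAT2B at baseline, at -0.58, is the only interval that leaves out 0, and its adjusted p was 0.317.

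KAT2B (ENSG00000114166; chr3:20040446-20154404, plus strand) was the gene with the clearest separation of the pools, in the downward direction. At baseline it had 49.29, 55.71, 57.59 and 50.21 CPM in the AAVS pools of lines 1 to 4 and 31.06, 39.18, 23.57 and 42.35 CPM in the CREBBP pools. With IL4 it had 56.36, 47.08, 70.23 and 53.38 CPM in the AAVS pools and 37.14, 26.96, 41.52 and 46.9 CPM in the CREBBP pools. Each CREBBP pool was below the AAVS pool of the same line in both conditions, and on this scale the groups overlapped in neither, with the highest CREBBP value with IL4 (46.9) just under the lowest AAVS value (47.08).

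The separation held after TMM scaling at baseline and was lost with IL4. The scaled baseline values were 53.78, 48.58, 64.47 and 43.05 CPM in the AAVS pools and 33.98, 36.64, 29.96 and 38.8 CPM in the CREBBP pools. With IL4 they were 51.18, 42.52, 62.14 and 46.1 CPM against 39.48, 37.21, 44.73 and 44.05 CPM, again lower in 4 of 4 lines, but with ranges that overlapped. Among all genes tested at baseline, 1.66% had groups that did not overlap in CPM and 1.77% in TMM-scaled CPM, and KAT2B was 1 of 9 genes on both scales. With IL4 the share of all genes was 14.3% in CPM, where KAT2B was 1 of 9, and 13.3% in TMM-scaled CPM, where 0 of 9 were separated.

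The log2 fold change of KAT2B was -0.58 at baseline (95% interval -1.02 to -0.13, or 0.493-fold to 0.914-fold), with an unadjusted p of 0.0161 that did not pass the adjustment over 18936 genes (adjusted p = 0.317, edgeR). With IL4 it was -0.31 (-0.81 to 0.19, adjusted p = 0.39). At baseline 26.5% of all genes tested had a larger absolute change. Leaving out each line in turn gave values from -0.70 to -0.42 at baseline and from -0.44 to -0.23 with IL4. As KAT2B was lower in 4 of 4 lines, these values give the size of the change and no separate check of its direction. In a fit chosen after these values were seen, in which the counts of the 2 libraries of each pool were added, KAT2B was at -0.33 (-0.71 to 0.042, adjusted p = 0.249, edgeR), 0 of 9 genes were called, and 5.81% of 21899 genes were called. IL4 against baseline gave KAT2B a log2 difference of 0.019 within AAVS pools (adjusted p = 0.959) and of 0.22 within CREBBP pools (adjusted p = 0.924, both edgeR).

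**Figure D3:**
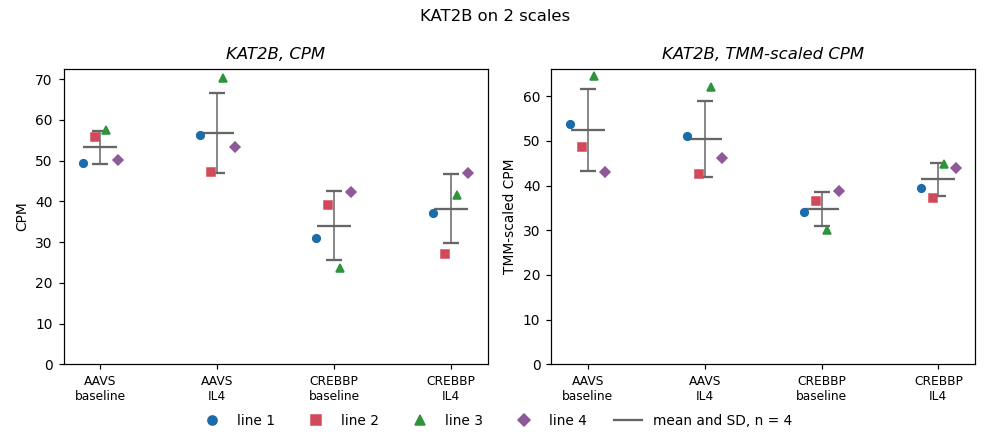
KAT2B in the 16 libraries as CPM (left) and as TMM-scaled CPM (right), both axes from 0. Symbols mark the lines, and bars give the mean and SD of 4 lines. The CREBBP pools lie below the AAVS pools at baseline on both scales, and with IL4 the TMM-scaled ranges of 37.21 to 44.73 and 42.52 to 62.14 overlap.

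KAT2A (ENSG00000108773; chr17:42113111-42121367, minus strand), the paralog of KAT2B, was at nearly the same level in both kinds of pool at baseline. It had 54.33, 73.64, 66.27 and 66.4 CPM in the AAVS pools and 67.06, 56, 56.48 and 60.15 CPM in the CREBBP pools, with a log2 fold change of -0.015 (95% interval -0.42 to 0.39, adjusted p = 0.982, edgeR). The ranges overlapped, and the interval reaches from 0.745-fold to 1.31-fold.

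With IL4, KAT2A was at 45.98, 49.26, 18.58 and 53.19 CPM in the AAVS pools and at 61.65, 22.34, 63.95 and 62.11 CPM in the CREBBP pools. In the AAVS pools all 4 IL4 values lay below all 4 baseline values. In this comparison 7.04% of all genes had groups that did not overlap in CPM, where KAT2A was 1 of 9, and 7.03% in TMM-scaled CPM, where KAT2A and KAT6B were 2 of 9. The log2 fold change for IL4 in the AAVS pools was -0.79 (95% interval -1.58 to 0.0041, adjusted p = 0.314, edgeR), and without line 3 it was -0.45 (adjusted p = 0.353). The line with the least KAT2A, line 3, also had the highest sum of IGHM, IGHD, CD44 and VIM among the AAVS IL4 libraries, with 3470 CPM against 1770, 876 and 694 CPM in lines 1, 2 and 4, and its T-cell markers summed to 214 CPM. The part of these transcripts in the KAT2A values was not tested.

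In the CREBBP pools the IL4 value of KAT2A was lower than baseline in 2 of 4 lines in CPM and in 3 of 4 after TMM scaling, and 1 of these was line 2, where 56 CPM were counted at baseline and 22.34 CPM in the IL4 library, the one with the 18.1% share of 7SK and 7SL. The log2 fold change was -0.26 (95% interval -0.66 to 0.15, adjusted p = 0.924, edgeR). For IL4 in the CREBBP pools, 0.377% of all genes had groups that did not overlap in CPM and 0.563% in TMM-scaled CPM, and 0 of 9 acetyltransferase genes were among them on either scale. CREBBP against AAVS with IL4 gave 0.58 for KAT2A (-0.35 to 1.52, adjusted p = 0.386), the widest interval of the 9 genes in this comparison, with an upper end of 2.87-fold. The difference in IL4 response was 0.63 (adjusted p = 0.526, edgeR). Without line 3, whose AAVS IL4 library had the least KAT2A, these values were 0.14 and 0.18. Without line 2, whose CREBBP IL4 library was low in KAT2A, they were 1.003 and 0.83, again with no call. The interval with IL4 thus reaches past 2-fold, while the baseline interval ends at 1.31-fold.

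Among the MYST genes, KAT6B (ENSG00000156650; chr10:74824927-75032624, plus strand) had the largest fitted change in the CREBBP pools at baseline, and it did not pass. Its levels were 130.9, 149.6, 117.6 and 145.3 CPM in the AAVS pools and 90.2, 149.4, 61.4 and 138.3 CPM in the CREBBP pools. Lines 1 and 3 were lower, while lines 2 and 4 were almost level, and after TMM scaling 2 of 4 lines were lower. The log2 fold change was -0.29 (95% interval -0.74 to 0.17, adjusted p = 0.593, edgeR). With IL4 its levels were 124.9, 112.1, 115.2 and 129.8 CPM in the AAVS pools and 78.75, 66.54, 89.92 and 127.1 CPM in the CREBBP pools, lower in 4 of 4 lines in CPM and in 3 of 4 after TMM scaling, where line 4 had 112.1 and 119.4 CPM, and the fitted value was -0.17 (adjusted p = 0.633, edgeR). In the AAVS pools the TMM-scaled level was 124.6 to 142.8 CPM at baseline and 101.3 to 113.4 CPM with IL4, the separation counted above, with a log2 fold change of -0.23 (adjusted p = 0.477, edgeR).

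KAT6A (ENSG00000083168, on chromosome 8), the paralog of KAT6B, had 264.7, 182.1, 289.9 and 338.4 CPM in the AAVS pools at baseline and 262.3, 209.9, 195.9 and 332.8 CPM in the CREBBP pools. The levels of lines 1 and 4 were almost the same, and line 3 was lower. The fitted log2 fold change of 0.0017 (95% interval -0.42 to 0.43, adjusted p = 0.998, edgeR) was at 0. With IL4 the levels were 312, 208.3, 441.3 and 363.5 CPM in the AAVS and 258.2, 103.4, 264.9 and 315.3 CPM in the CREBBP pools, and the value was -0.28 (adjusted p = 0.456, edgeR). KAT6A was higher with IL4 than at baseline in 4 of 4 AAVS lines in CPM and in 3 of 4 after TMM scaling, where line 1 had 288.8 CPM at baseline and 283.4 CPM with IL4, with a fitted log2 fold change of 0.22 (-0.19 to 0.63, adjusted p = 0.521, edgeR).

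KAT5 (ENSG00000172977; chr11:65711996-65719604, plus strand) ranged from 19.51 to 44.29 CPM over the 16 libraries, and its CREBBP baseline value was higher than the AAVS value in lines 1 and 2 and lower in lines 3 and 4. KAT7 (ENSG00000136504; chr17:49788624-49835026, plus strand) ranged from 45.42 to 100.1 CPM. KAT8 (ENSG00000103510; chr16:31114489-31131393, plus strand) ranged from 16.1 to 30.74 CPM and had the narrowest spread of the 9 genes, with a highest value 1.91 times the lowest. The baseline log2 fold changes were -0.090 for KAT5 (95% interval -0.57 to 0.39), -0.043 for KAT7 (-0.44 to 0.35) and 0.081 for KAT8 (-0.33 to 0.49). Their adjusted p-values were 0.89, 0.944 and 0.884 in turn (edgeR). With IL4 the same comparison gave -0.015, -0.099 and 0.018, with adjusted p-values of 0.973, 0.789 and 0.966 (edgeR).

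Over the 9 genes, the fitted baseline change was above 0 in 2 and below 0 in 7, with a median of -0.090, where the median of all genes tested was -0.025 and 47.8% were above 0. With IL4 it was again 2 above and 7 below, with a median of -0.17 against -0.054 for all genes, and with DESeq2 size factors KAT8, one of the genes above 0, was at -0.0038. Of the 36 intervals in the 4 pairwise comparisons, 1 reached 2-fold or more upward (KAT2A with IL4) and 3 reached 2-fold or more downward (CREBBP with IL4, KAT2B at baseline and KAT2A for IL4 in the AAVS pools).

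Ratios of paralogs within a library do not depend on how libraries are scaled. Each count was first divided by the length of all annotated exons of its gene, which shifts a ratio equally in every library. The log2 ratio of EP300 to CREBBP per exon length was 1.02, 0.41, 0.72 and 1.18 in lines 1 to 4 of the AAVS baseline pools. In the CREBBP baseline pools it was 0.77, 0.43, 0.71 and 0.99. EP300 thus had the higher level per exon length in all of these libraries. By geometric mean it was at 1.78 times CREBBP in the AAVS pools and 1.65 times in the CREBBP pools. With IL4 the ratio was higher in the CREBBP pool in 4 of 4 lines, by 0.12, 0.15, 0.38 and 0.24, with a mean of 0.22 ± 0.12 (SD, n = 4). The exact two-sided sign-flip test gave p = 0.125 (adjusted p = 0.25 over 6 tests), and 0.125 is the smallest p that 4 lines allow. At baseline the mean difference was -0.11 ± 0.13 (SD, n = 4), with a higher ratio in 1 of 4 lines (exact p = 0.375, adjusted p = 0.45).

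**Figure D4:**
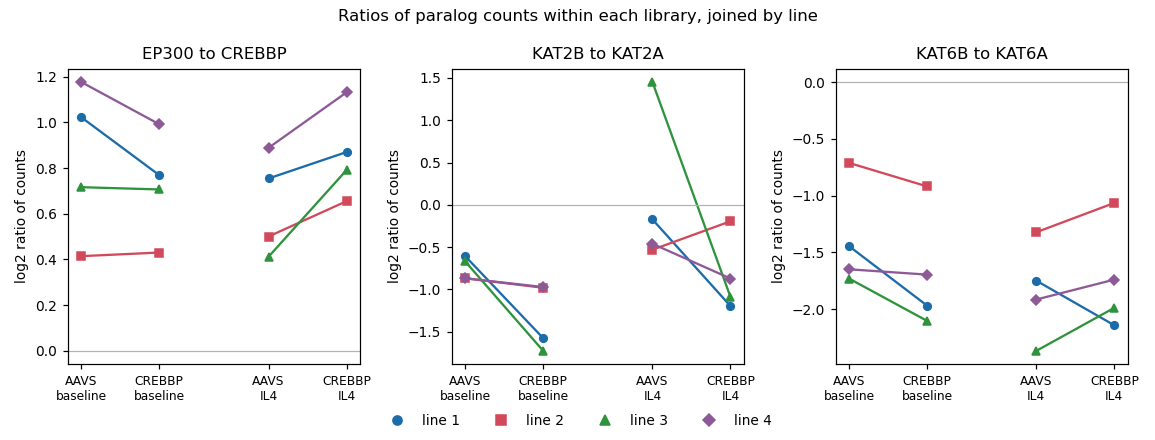
Log2 ratio of paralogs within each library (vertical axis) for EP300 to CREBBP, KAT2B to KAT2A and KAT6B to KAT6A. The counts were divided by the length of all annotated exons, which moves all points of a panel by the same amount. Lines join the AAVS and the CREBBP pool of the same cell line. At baseline the KAT2B to KAT2A ratio is lower in the CREBBP pool in all 4 lines, by -0.97, -0.11, -1.06 and -0.10, and line 3 stands apart in AAVS IL4, at 1.45.

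The ratio of KAT2B to KAT2A was lower in the CREBBP pool in 4 of 4 lines at baseline, with differences of -0.97, -0.11, -1.06 and -0.10 in lines 1 to 4. Lines 1 and 3 differed by about a factor of 2, and lines 2 and 4 hardly at all. The mean was -0.56 ± 0.52 (SD, n = 4; exact p = 0.125, the smallest possible, adjusted p = 0.25). With IL4 the mean was -0.91 ± 1.22 (SD, n = 4; exact p = 0.25, adjusted p = 0.375), lower in 3 of 4 lines, and without line 3 it was -0.37. The ratio of KAT6B to KAT6A was lower in 4 of 4 lines at baseline, by a mean of -0.29 ± 0.21 (SD, n = 4; exact p = 0.125, adjusted p = 0.25), and with IL4 it was higher in 3 of 4 lines, by 0.11 ± 0.34 (SD, n = 4; exact p = 0.625, adjusted p = 0.625).

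Levels can be compared between genes only per length. Per kb of all annotated exons, EP300 was the most abundant of the 9 in the AAVS baseline pools, at 31.8 ± 9.49 CPM per kb (SD, n = 4), followed by CREBBP at 17.4 ± 4.23, KAT2A at 17.3 ± 2.12, KAT6A at 11.1 ± 2.71 and KAT2B at 10.2 ± 0.782. KAT5 followed at 8.50 ± 2.50, KAT7 at 5.19 ± 0.506, KAT8 at 4.37 ± 0.640 and KAT6B at 4.18 ± 0.448 CPM per kb. EP300 was above CREBBP, KAT2A above KAT6A and KAT5 above KAT7 in 4 of 4 lines. CREBBP and KAT2A were in either order, in 2 of 4 lines each, and the other neighbours kept their order in 3 of 4 lines. EP300 held the first rank in all 4 groups. KAT2B held rank 5 in both AAVS groups and in CREBBP IL4, and rank 6 in CREBBP baseline.

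The order below EP300 depended on the length used. Per kb of the longest annotated transcript, KAT6A took rank 2 in all 4 groups, at 29.1 ± 7.07 CPM per kb (SD, n = 4) in AAVS baseline, and KAT6B moved there from rank 9 to rank 5, at 16.3 ± 1.75. The exons of KAT6B add up to 32495 bases over 41 annotated transcripts, while the longest transcript has 8314 bases. The summed level of CREBBP and EP300 per kb of exons was 49.2 ± 13.0 CPM per kb (SD, n = 4) in AAVS baseline and 40.4 ± 11.7 in CREBBP baseline, and that of all 9 genes was 110 ± 15.3 and 93 ± 16.8, with ranges that overlapped.

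**Figure D5:**
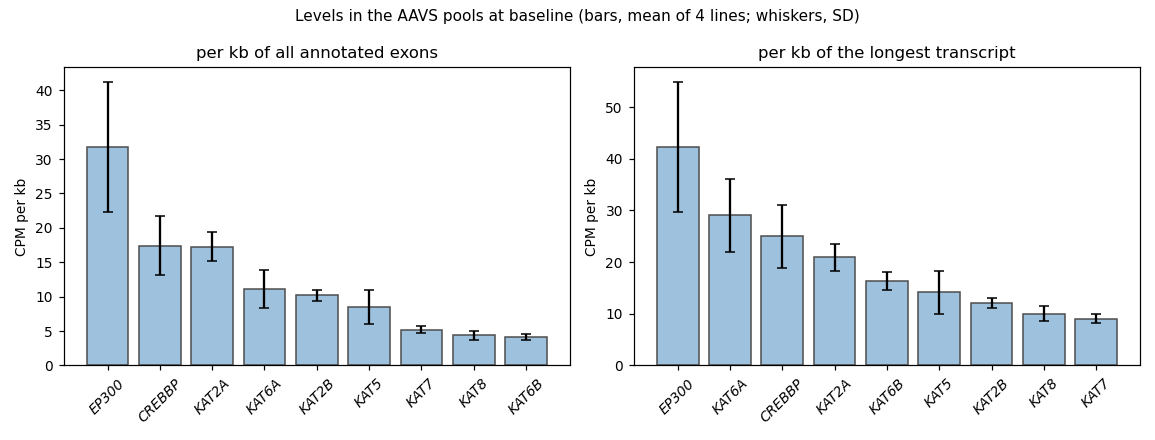
Level in the AAVS pools at baseline in CPM per kb (vertical axis, from 0), with the gene length taken as all annotated exons (left) or as the longest transcript (right). Bars are means and whiskers SDs of 4 lines. EP300 is highest with both lengths, at 31.8 and 42.3 CPM per kb, and KAT6B moves from the last place to the middle.

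The cell lines differed in the levels of some of these genes. EP300 averaged 171.8 CPM over the 4 libraries of line 2 and 429.4 CPM over those of line 4, a ratio of 2.5. KAT6A averaged 175.9 and 337.5 CPM and CREBBP 164 and 278.4 CPM in the same lines. The line 2 means include the CREBBP IL4 library with the 18.1% share of 7SK and 7SL. In that library EP300 was at 83.18, KAT6A at 103.4 and CREBBP at 69.91 CPM. KAT8 and KAT2B differed least between lines, with ratios of 1.11 and 1.14 between the highest and the lowest line. For EP300, KAT6A and KAT5 the SD between line means (0.62, 0.43 and 0.31 on the log2 scale) was larger than the SD within lines (0.41, 0.35 and 0.25). For all other genes it was smaller, as for CREBBP (0.42 against 0.47), KAT2B (0.10 against 0.46) and KAT2A (0.20 against 0.59).

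CREBBP and EP300 had similar patterns over the libraries. The deviations of log2(CPM + 1) from the line means had a Pearson correlation of 0.964 over the 16 libraries, and EP300 ranked 5 of 10672 genes for likeness to CREBBP, behind SMURF1 (0.98), TRAPPC10 (0.974), BRPF3 (0.973) and CCDC88C (0.969). BRPF3 is a scaffold of the KAT7 complex. For EP300 the closest genes were CDK13 (0.985), a kinase of transcription elongation, then CREBBP (0.964), AKNA (0.962), PEX10 (0.96) and CCDC88C (0.96). Both lists kept all 5 genes with a pseudocount of 0.1. These points share library depth and composition, and the line 2 CREBBP IL4 and line 3 CREBBP baseline libraries, both with a large share of 7SK and 7SL, were the lowest of their lines for both genes. Among the acetyltransferases, KAT7 (0.854), KAT6B (0.825) and KAT6A (0.824) came next to CREBBP, and KAT2A came last, at 0.321, close to the median of all genes of 0.323. KAT2A against KAT2B was at -0.106.

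The other genes of protein acetylation were called at shares near those of all genes. Of the 91 genes on the lists that are not among the 9, 0 of 88 tested were called at baseline, where 0% of all genes were. With IL4 it was 3 of 88, or 3.41%, against 4.39% of all genes, for IL4 in the AAVS pools 1 of 87, or 1.15%, against 2.4%, and for the difference in response 1 of 88, or 1.14%, against 0.638%. For IL4 in the CREBBP pools it was 0 of 87, against 0%. The lists held 11 other acetyltransferases, 20 SAGA and ATAC subunits, 17 TIP60 complex subunits, 9 MOZ, MORF and HBO1 subunits, 11 MSL and NSL subunits, 10 CBP and p300 partners, 7 sirtuins, 4 BET readers and 8 genes of acetyl-CoA supply, with some genes on more than 1 list. All listed genes were tested at baseline except 2 of the partners and 1 BET reader, and the lowest adjusted p there was 0.238 (edgeR). With IL4, HAT1, NCOA1 and YEATS4 were called between CREBBP and AAVS pools, and for IL4 in the AAVS pools and for the difference in response NCOA1 was the only gene called from these lists.

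HAT1, which acetylates newly made histone H4, had 32.92, 85.97, 36.85 and 53.78 CPM in the AAVS IL4 pools and 48.47, 203.4, 97.92 and 109.2 CPM in the CREBBP IL4 pools of lines 1 to 4. This comparison uses the AAVS IL4 libraries described above, whose part in it was not tested. HAT1 was higher in 4 of 4 lines, at 1.34 ± 0.27 (SE) on the log2 scale (adjusted p = 0.0412, edgeR), but the groups overlapped. At baseline its log2 fold change was 0.64 (adjusted p = 0.307, both edgeR). The call held in 5 of 9 alternatives and was lost without the line block and without line 1, 3 or 4, while the log2 difference stayed between 1.20 and 1.55.

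YEATS4, a reader subunit of the TIP60 complex in which KAT5 is the enzyme, had 15.37, 21.74, 15.11 and 17.25 CPM in AAVS IL4 and 36.04, 37.86, 36.9 and 43.13 CPM in CREBBP IL4. The AAVS IL4 libraries enter this comparison too, and their part in it was not tested. Against baseline, the IL4 values were lower in 4 of 4 AAVS lines and higher in 4 of 4 CREBBP lines. The groups did not overlap, as for 14.3% of all genes in CPM and 13.3% in TMM-scaled CPM. The fitted log2 difference was 1.44 ± 0.22 (SE, adjusted p = 0.0233, edgeR). At baseline it was 0.56 (adjusted p = 0.31, edgeR). Without line 1, 3 or 4 the call was lost, while the log2 difference was between 1.38 and 1.49 in all 9 alternatives.

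NCOA1, a nuclear receptor coactivator that binds CBP and p300, was at 28.94, 11.5, 30.03 and 15.62 CPM in the AAVS baseline pools. In the AAVS IL4 pools it was at 71.61, 43.58, 98.93 and 47.84 CPM, above all other libraries, and the CREBBP pools had 5.516 to 26.88 CPM. It rose with IL4 in the AAVS pools, by 1.58 ± 0.20 (SE) on the log2 scale (adjusted p = 0.017), and was lower in the CREBBP IL4 than in the AAVS IL4 pools, at -1.62 ± 0.28 (SE, adjusted p = 0.0296, both edgeR). The response differed between the pools by -1.41 (adjusted p = 0.0411, edgeR). These results use the AAVS IL4 libraries, in which NCOA1 was highest in line 3, the library with the highest sum of IGHM, IGHD, CD44 and VIM, and all 3 calls were lost without line 1 or 4 and without the line block. The last 2 were also lost without line 3. The log2 differences stayed between 1.43 and 1.66, -1.91 and -1.33, and -1.56 and -1.25 in turn.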

How the data were processed

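Bulk RNA-seq of ribosomal RNA depleted RNA (50 ng input per the labels) was used, with 16 paired-end libraries. Per the submitters' processing notes the tools were cutadapt 2.3, FastQC 0.11.8, MultiQC 1.7, STAR 2.7.8a and RSEM 1.3.3 with GRCh38. The authors deposited expected counts per gene from RSEM, which were whole in the files and carry no normalization. RSEM divides reads that fit several genes between them by its model.

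CPM is the count scaled to the library total. Genes kept by filterByExpr were scaled by TMM and tested with the quasi-likelihood test of edgeR 4.0.16 in R 4.3.3, with the line as a block and, for the difference in response, a term for each pool. Lines pair the libraries, since the titles give libraries of equal number the same cell line. Deviations from group means correlated within lines with medians of 0.593, 0.711, 0.298 and 0.685, and a lowest value of -0.158 in line 3. For line 3 the pairing thus rests on the titles. The p-values of edgeR weigh differences within lines against a spread estimated from these libraries and drawn toward that of all genes tested. For the difference in response these are differences within pools. Scripts were tested on simulated data. DESeq2 was version 1.42.0, and Python 3.11.15 made the figures. Positions come from GENCODE 44. The control guides are not reported here. The closest genes were sought among genes with a mean of at least 5 CPM. In ratios, 0.5 was added to counts, which were then divided by the length of all annotated exons.

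The members and gene lists were chosen with earlier results of these data known. All 9 members are named, with PPP1R12C, up to 2 called genes per other list and comparison with the smallest adjusted p, and the 5 genes most like CREBBP and EP300. Alternatives were DESeq2 size factors, no filter, no block, the DESeq2 Wald test, all 16 libraries in 1 fit, each line left out, a pseudocount of 1 in ratios and other lengths. The counting error of the lowest count of a member (365, KAT2A) was 5.23% and covers counting error only.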

Additional observations from a re-analysis of the deposited data

Results flagged for a closer look

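In 36 groups of 4 libraries (9 genes in 4 groups), 2 single libraries lay far from the other 3 by Dixon's gap over range, and both belong to line 2. Chance marks about 1 group in 20. EP300 in the AAVS baseline pools was lowest in line 2, at 206.4 CPM, where lines 1, 3 and 4 had 412.8 to 446.4 CPM (gap over range 0.86), and EP300 was lowest in line 2 in all 4 groups. KAT2A in the CREBBP IL4 pools was lowest in line 2, at 22.34 CPM, against 61.65 to 63.95 CPM in the other lines (gap over range 0.945). In that library 7SK and 7SL took 18.1% of the counts.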

How the results depend on the processing

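The 9 genes had 0 calls in every alternative run, the replicate block (the line) included. Their log2 fold changes fell on the other side of 0 in 28 of 225 alternative fits and in 29 of 180 fits that left out a line, for genes whose reported value lay between -0.12 and 0.15. The cause was not tested. The 225 fits include those that added the baseline and IL4 counts of each pool, which were set against the baseline value. These gave KAT2A 0.21, KAT5 0.0071, KAT6A -0.020 and KAT7 0.023 for CREBBP against AAVS and are not baseline estimates. For CREBBP against AAVS at baseline the value was KAT6A -0.044 without the filter and KAT6A -0.028 without the line block. For the same with IL4 the value was KAT5 0.029 without the filter, KAT5 0.012 without the line block, KAT5 0.011 with all 16 libraries in 1 fit, KAT8 -0.0038 with DESeq2 size factors, KAT8 -0.0034 with the DESeq2 test. For IL4 in the AAVS pools the value was CREBBP -0.049 and KAT2B -0.11 and KAT7 -0.096 and KAT8 -0.068 without the filter, CREBBP -0.0066 and KAT2B -0.057 and KAT7 -0.047 and KAT8 -0.017 with all 16 libraries in 1 fit, KAT2B -0.021 and KAT7 -0.012 with DESeq2 size factors, KAT2B -0.021 and KAT7 -0.011 with the DESeq2 test. For IL4 in the CREBBP pools the value was KAT5 0.0018 with DESeq2 size factors, KAT5 0.0017 with the DESeq2 test, KAT5 0.0014 with all 16 libraries in 1 fit. For the difference in response the value was EP300 0.059 and KAT7 0.0011 without the line block. Leaving out each line in turn crossed 0 as follows. For CREBBP against AAVS at baseline the range was -0.21 to 0.083 for CREBBP, -0.13 to 0.10 for KAT2A, -0.22 to 0.077 for KAT5, -0.072 to 0.11 for KAT6A, -0.064 to 0.0025 for KAT7. For the same with IL4 the range was -0.072 to 0.031 for KAT5, -0.18 to 0.0069 for KAT7, -0.084 to 0.14 for KAT8. In the AAVS pools, IL4 against baseline had a range of -0.11 to 0.18 for CREBBP, -0.27 to 0.023 for EP300, -0.056 to 0.070 for KAT2B, -0.16 to 0.11 for KAT5, -0.027 to 0.026 for KAT7, -0.038 to 0.068 for KAT8. In the CREBBP pools, the range was -0.055 to 0.023 for KAT5, -0.21 to 0.014 for KAT6A. For the difference in response the range was -0.38 to 0.090 for EP300, -0.13 to 0.19 for KAT5, -0.015 to 0.18 for KAT6B, -0.12 to 0.019 for KAT7, -0.11 to 0.0058 for KAT8.

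The number of all genes called changed more. At baseline it was 0, and it was 586 without the filter, 511 by DESeq2 and 0 to 515 when a line was left out, with 515 without line 2. After the values were seen, the baseline and IL4 counts of each pool were also added, which is no longer a baseline comparison. The number there was 1273. With IL4 it was 859, and 3466 without the filter, 540 without the line block, 4154 by DESeq2, 4393 with all 16 libraries in 1 fit and 25 (without line 3) to 2547 (without line 2). IL4 in the AAVS pools gave 488, and 1851 without the filter, 2062 by DESeq2, 1270 with all 16 libraries and 64 (without line 1) to 1035 (without line 2). For IL4 in the CREBBP pools it was 0, and 40 without the filter and 1 by DESeq2. For the difference in response it was 140, and 1191 without the filter, 2 without the line block, 1099 by DESeq2 and 16 (without line 1) to 264 (without line 2). Paralog ratios kept their direction with a pseudocount of 1 and without each line. For the ratios that differed the same way in 4 of 4 lines, leaving out a line could not change the direction.

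With 4 lines and 1 library per line and condition, only changes well beyond the spread of the differences within lines can be called. The 95% intervals of the 9 genes give the sizes that these libraries leave possible. All 4 AAVS IL4 libraries stand apart in IGHM, IGHD, CD44 and VIM, and none of the alternatives removes them from the comparisons that use them.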
